A study of Mus musculus with 8 samples.

Results

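The 5 actin genes Actc1, Acta1, Acta2, Actb and Actg1 were followed by name through 4 stages of the path from mouse embryonic stem cell to heart muscle cell, as 5 of the 13540 genes in the analysed table. All 5 were in the table, each with a value above 0 at every stage. The embryonic stem cells were of the 129/Ola strain, without further genotype in the labels, and were sampled on day 0 as stem cells (ESC), on day 4 as mesoderm (MES), on day 5.3 as cardiac precursors (CP) and on day 10 as cardiomyocytes (CM). Each stage had 2 libraries, 8 in all, of poly(A) RNA. Cells were first grown in serum-free medium as floating aggregates, the embryoid bodies. These were taken apart and reaggregated with VEGF, Activin A and BMP4, then taken apart again and plated in a medium with VEGF, basic FGF and FGF10. The label of the stem cell libraries carries the same culture text as the others.

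The level used throughout is RPKM, the number of reads relative to gene model length and to depth, with 1 value per stage and gene. Because the table holds no separate value per library, nothing below has a replicate check, an SD or a p-value, and whether the duplicates agree cannot be told. Depth, recovered from the steps between low values, lay between 62.0 M and 88.5 M reads per stage (1 M is 1000000). Where 4 values follow each other they are in the order ESC, MES, CP and CM. The 95% Poisson intervals given below cover counting error only. These are cultures and not purified cells, so fewer cells of a type and less RNA per cell cannot be told apart. Levels of marker genes went with the labels: Pou5f1, a transcription factor of pluripotent cells, was at 669.96 RPKM in ESC and 76.4 in MES, T, a factor of early mesoderm, was highest in MES at 53.2, and Nkx2-5, a cardiac transcription factor, was at 1.30 in MES against 70.1 in CP and 178 in CM. The 10 cardiomyocyte markers examined summed to 11.7 RPKM in ESC and 71.7 in MES, then 1927 in CP and 8794 in CM. At least 2-fold higher in CM than in CP were 10 of 10, against 11.3% of all genes.

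Actin is the protein of the thin filament of muscle and of the microfilaments of every nucleated cell, and mammals make it from a small family of separate genes. Actc1 encodes cardiac and Acta1 skeletal alpha-actin, the actins of the striated sarcomere, and the developing heart is known to use both. Acta2 encodes the alpha-actin of vascular smooth muscle, which embryonic heart muscle also makes for a time. Actb and Actg1 encode the cytoplasmic beta- and gamma-actin of non-muscle cells, and Actb is widely used as a reference gene. The proteins are nearly alike and differ most at their amino ends, while the genes differ in their untranslated ends and in silent positions. For this reason the sequences come first, since they decide which reads can be told apart.

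The start of the coding sequence shows where the isoforms part. Below are the first coding bases from the start codon in GENCODE M21, 60 in the muscle actins and 54 in the cytoplasmic actins, whose coding sequences of 1128 bases are shorter than the 1134 bases of the muscle ones. The windows end at the same distance from the stop codon, and capitals mark bases that differ from Actc1 at that distance (in the cytoplasmic actins this includes the start codon, which sits further in). Acta1 differed from Actc1 at 9 bases, Acta2 at 14, Actb at 22 and Actg1 at 20.
Actc1: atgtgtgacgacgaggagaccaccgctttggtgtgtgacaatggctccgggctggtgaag
Acta1: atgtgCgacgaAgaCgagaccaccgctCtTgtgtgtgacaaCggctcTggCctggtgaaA
Acta2: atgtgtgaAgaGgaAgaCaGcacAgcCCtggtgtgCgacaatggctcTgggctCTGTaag
Actb: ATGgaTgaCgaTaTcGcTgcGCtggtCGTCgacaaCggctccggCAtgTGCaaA
Actg1: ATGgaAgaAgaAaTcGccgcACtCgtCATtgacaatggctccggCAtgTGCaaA

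Over the whole coding sequence, compared without gaps back from the stop codon, Actb and Actg1 were the most alike pair, with 88.7% of 1128 bases the same. Acta1 and Actc1 had 86.2% of 1134 bases in common, Acta1 and Acta2 85.4%, and Acta2 and Actc1 82.5%. Acta1 and Actb had 85.0% in common, and their longest unbroken run, 77 bases, was the longest of any pair compared. The longest unbroken run of Actb with Actg1 and that of Acta1 with Actc1 show where a short read could come from either gene. They are printed in lower case because every base is common to both genes.
Actb and Actg1, 62 bases, from coding base 889 of both: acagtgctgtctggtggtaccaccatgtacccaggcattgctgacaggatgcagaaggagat
Acta1 and Actc1, 29 bases, from coding base 964 of both: ctggctcccagcaccatgaagatcaagat

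In words of 32 bases, that is every stretch of that length along a transcript, the 3 muscle actins had none in common with one another. The longest coding run in common was 29 bases for Acta1 with Actc1, 29 for Acta1 with Acta2 and 23 for Acta2 with Actc1. Counted over all GENCODE M21 transcripts on both strands, 0.555% of the 32-base words of the longest Actc1 transcript, 1.35% of those of Acta2 and 4.24% of those of Acta1 also occurred in another gene. The cytoplasmic actins were different. In Actb 34.0% of the words were shared, 42.8% in the coding part and 26.4% in the 3′ untranslated part, and the largest share, 21.8%, was with Lrrc58. In Actg1 57.1% of the words were shared, 100% of the coding part and 0% of the 3′ untranslated part. Most of the Actg1 overlap was with copies that the annotation names as numbered gene models or pseudogenes, Gm12715 with 53.5% of the words, Gm8399 with 42.6% and Actg-ps1 with 32.4%, against 5.31% with Actb. Words of 75 bases still left 97.1% of the Actg1 coding part shared. How the authors counted a read that fits several places is not given in the sources used here, nor is the read length. The levels of Actg1, and in part of Actb, are therefore uncertain in absolute size. Those of the muscle actins are much less so, except for Acta1 and Acta2 in MES, where they were very low beside Actb.

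**Figure D1:**
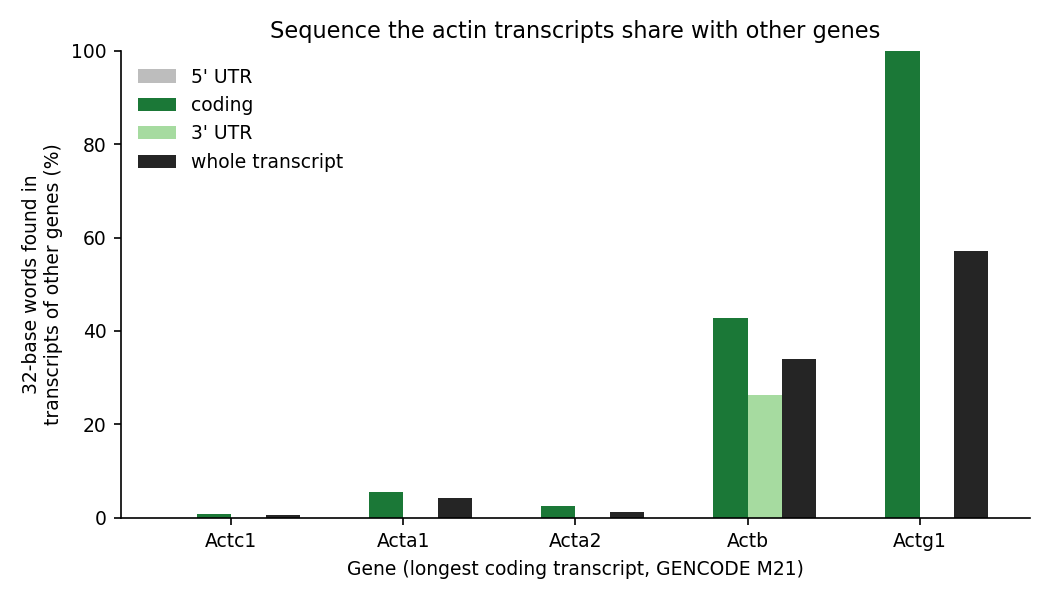
Bars give the percentage of the 32-base words of each actin's longest coding transcript (GENCODE M21) that also occur in transcripts of other genes, for the 5′ untranslated, coding and 3′ untranslated parts and the whole transcript. The whole-transcript bar is at 0.555% for Actc1, 1.35% for Acta2 and 4.24% for Acta1, but at 34.0% for Actb and 57.1% for Actg1.

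Actin genes are textbook targets of serum response factor, SRF, which binds the CArG box, a stretch of 10 bases with 2 C at one end, 2 G at the other and 6 bases of A or T between them. RefSeq (GRCm38.p6, a newer build than the mm9 of the files) gave the 250 bases before the start of 4 of the 5 genes, all but Actb. They are shown because the muscle actins differ in how many such boxes they carry there. Capitals mark CArG boxes and stretches 1 central base off, all sequences read in the direction of the gene, and all 4 genes lie on the minus strand.
Actc1, chr2:114052876-114053125: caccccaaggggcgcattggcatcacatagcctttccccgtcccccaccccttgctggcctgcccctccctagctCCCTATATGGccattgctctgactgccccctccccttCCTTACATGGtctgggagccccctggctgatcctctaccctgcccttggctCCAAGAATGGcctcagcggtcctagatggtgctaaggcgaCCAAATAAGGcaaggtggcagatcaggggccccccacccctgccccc
Acta1, chr8:123894776-123895025: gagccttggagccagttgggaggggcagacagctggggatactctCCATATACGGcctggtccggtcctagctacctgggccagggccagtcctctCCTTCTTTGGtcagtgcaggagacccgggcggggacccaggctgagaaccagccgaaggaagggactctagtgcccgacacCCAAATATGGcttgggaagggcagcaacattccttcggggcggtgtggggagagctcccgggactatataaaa
Acta2, chr19:34255374-34255623: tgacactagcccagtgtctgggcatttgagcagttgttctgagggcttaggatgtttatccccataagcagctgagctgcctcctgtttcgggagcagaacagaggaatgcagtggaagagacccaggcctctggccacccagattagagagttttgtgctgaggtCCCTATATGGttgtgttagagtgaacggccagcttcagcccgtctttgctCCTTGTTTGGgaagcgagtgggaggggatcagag
Actg1, chr11:120348496-120348745: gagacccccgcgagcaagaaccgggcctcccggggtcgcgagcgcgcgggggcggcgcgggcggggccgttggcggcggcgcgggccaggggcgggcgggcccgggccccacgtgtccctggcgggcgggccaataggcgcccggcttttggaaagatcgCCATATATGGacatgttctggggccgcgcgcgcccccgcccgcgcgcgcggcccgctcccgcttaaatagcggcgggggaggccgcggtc

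The exact box lay 47 to 38 bases before the start in Actc1, 73 to 64 in Acta1 and 90 to 81 in Actg1, and Acta2 had 2 stretches that were 1 base off, from 84 to 75 and from 34 to 25. Actc1 had 3 and Acta1 2 further stretches 1 base off. Of 32851 RefSeq promoters of the same length, 1.47% held an exact box and 8.59% an exact box or a stretch 1 base off (the box reads as a box on either strand). A match to these letters is a description of the sequence and says nothing about binding in these cells.

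Actc1 (ENSMUSG00000068614) went from a low level to the highest level of any gene. It stood at 3.68 RPKM in ESC (3.35 to 4.04 by counting) and 6.07 in MES (5.60 to 6.58), then 352 in CP and 3917 in CM. In CM it ranked 1 of 13540 genes and held 1.51% of the summed RPKM of that stage, while it ranked 8327 in ESC, 7101 in MES and 38 in CP. The level was 58.0-fold higher in CP than in MES and 11.1-fold higher in CM than in CP, against 1.65-fold between ESC and MES. The smallest whole numbers of reads that give these values were 449, 609, 36914 and 561069, on a recovered gene model of 1618 bases.

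Acta1 (ENSMUSG00000031972), the skeletal muscle isoform, was lowest in mesoderm. It stood at 25.4 RPKM in ESC and 0.525 in MES (0.385 to 0.698 by counting, from 47 reads at least), then 24.4 in CP and 259 in CM. ESC and CP were nearly level, 48.3-fold and 46.5-fold above MES, and CM was 10.6-fold above CP. In CM it was the gene of rank 95.

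Acta2 (ENSMUSG00000035783), the smooth muscle isoform, was also lowest in MES and highest in CM, but unlike Acta1 it was higher in CP than in ESC. It stood at 131 RPKM in ESC and 1.96 in MES (1.67 to 2.29 by counting), then 498 in CP and 1944 in CM, where it ranked 5. ESC was 66.9-fold and CP was 254-fold above MES, and CM was 3.90-fold above CP. In CP it was above Actc1, the only stage besides ESC in which it led the muscle actins.

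Actb (ENSMUSG00000029580) was among the 5 most abundant genes of the table until the last stage. It stood at 1873 RPKM in ESC and 1554 in MES, then 1806 in CP and 717 in CM, with ranks 5, 4, 2 and 27. The first 3 stages lay within 1.21-fold of each other, and CP was 2.52-fold above CM. Actg1 (ENSMUSG00000062825) was far lower and almost level, at 40.6, 36.3, 31.3 and 43.9 RPKM from ESC to CM. Its highest stage was 1.40-fold above its lowest. These per-length values for Actg1 rest on a recovered model of 2658 bases, the length of all M21 exons of the gene joined, against 1952 bases in its longest M21 transcript, and on sequence that is largely shared, as shown above. The models of Actb and Acta2 were recovered only as 1265 and 1331 bases or a multiple of these. Their longest M21 transcripts have 1920 and 2035 bases.

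**Figure D2:**
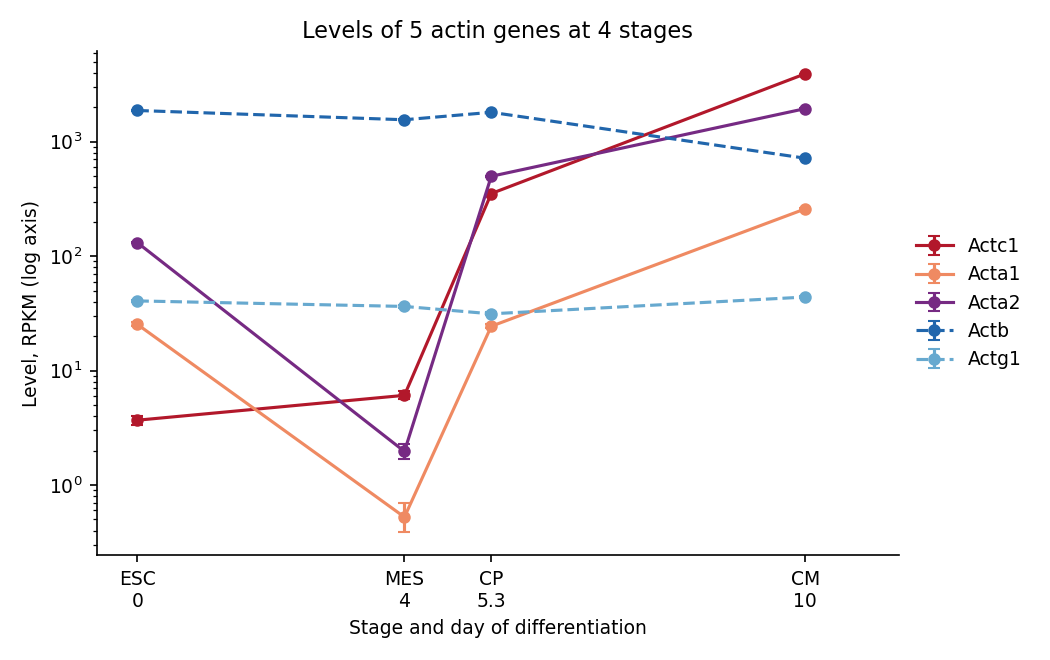
Points give the RPKM (log axis) of the 5 actin genes against the day of differentiation, 1 value per stage, with lines joining the stages and bars for the 95% Poisson interval of the reads, most of which are smaller than the point. Acta1 and Acta2 are at 0.525 and 1.96 in MES and above 24 on either side of it, Actc1 climbs from 3.68 to 3917, and Actb is at 717 in CM against 1554 to 1873 before.

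The order of the 5 genes was different at every stage. In ESC it was Actb, Acta2, Actg1, Acta1, Actc1, in MES Actb, Actg1, Actc1, Acta2, Acta1, in CP Actb, Acta2, Actc1, Actg1, Acta1, and in CM Actc1, Acta2, Actb, Acta1, Actg1. No neighbours in these orders had overlapping counting intervals, and whether they would differ beyond the spread of the duplicates was not tested. Each gene was also divided by the part of its transcript not found elsewhere, as if reads in exactly shared words had been dropped. This raised Actg1 to between 73.0 and 102 RPKM and Actb to between 1086 and 2837 but left the order as it was in all 4 stages. Only exact matches to annotated transcripts enter this division. Reads lost to near copies or to copies outside the annotation are not covered, so the order could still differ.

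Summed over the 5 genes, actin RNA stood at 2074 RPKM in ESC and 1599 in MES, then 2712 in CP and 6881 in CM, which was 0.784%, 0.629%, 1.13% and 2.65% of all RPKM of the stage. The 3 muscle actins made up 7.73% of it in ESC and 0.535% in MES, then 32.3% in CP and 88.9% in CM. The 2 cytoplasmic actins summed to 1914, 1591, 1837 and 761 RPKM over the stages. In CM the muscle actins were 8.04 times the cytoplasmic ones. After the same division by the unshared part, and with the same limit, the muscle share was 5.28%, 0.353%, 23.95% and 83.9%, with the stages in the same order.

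**Figure D3:**
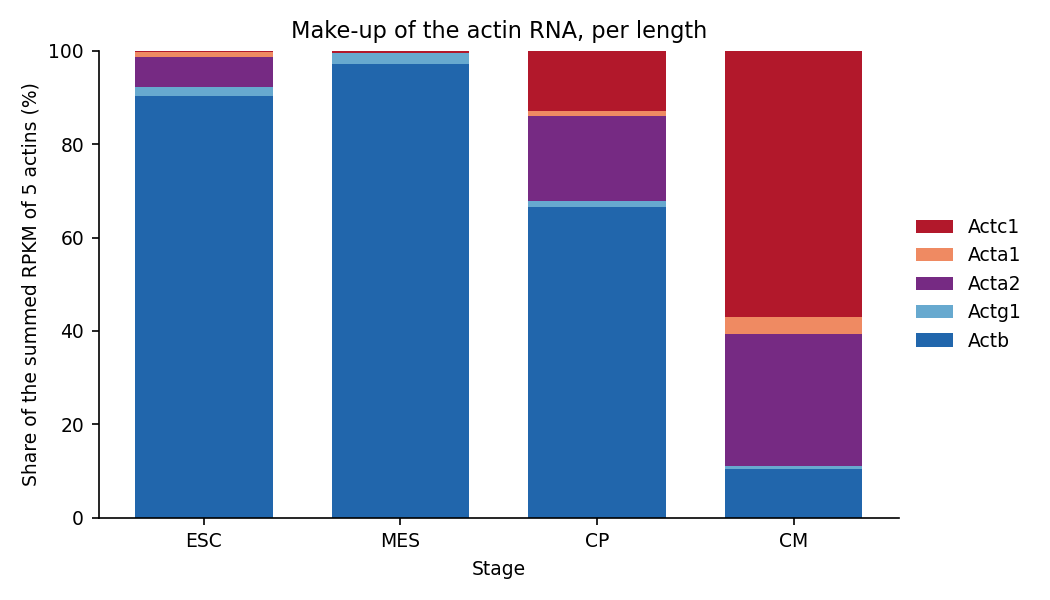
Stacked bars give each gene's share of the summed RPKM of the 5 actins at each stage, cytoplasmic actins (blue) at the bottom. Actb takes 90.3% in ESC and 97.2% in MES, then 66.6% in CP and 10.4% in CM, where Actc1 takes 56.9%, Acta2 28.3% and Acta1 3.76%.

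Which muscle actin led also differed. Acta2 held 81.9% of the muscle actin RPKM in ESC and 22.9% in MES, then 57.0% in CP and 31.8% in CM. Actc1 held 2.30%, 70.9%, 40.3% and 64.0%. Acta1 held 15.8%, 6.13%, 2.79% and 4.23%, so cardiac alpha-actin exceeded skeletal alpha-actin at every stage but ESC.

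The ratio of Acta1 to Actc1, the 2 sarcomeric actins, was 689% in ESC (623% to 761% by counting) and far lower afterwards. It was 8.64% in MES (6.42% to 11.6%), 6.93% in CP (6.64% to 7.23%) and 6.60% in CM (6.53% to 6.68%), across stages in which Actc1 itself spanned 6.07 to 3917 RPKM, and the intervals of MES and CP and of CP and CM overlapped. Their transcripts share no word of 32 bases. The ratio of Acta2 to Actc1 was not level, with 3566%, 32.3%, 141% and 49.6%. In MES, where Actb was at 1554 RPKM, Acta1 was at 0.0338% of Actb and Acta2 was at 0.126% of Actb. Of the 32-base words of Acta1 3.89%, and of those of Acta2 0.798%, also occur in Actb. The part of Actb reads in the MES levels of Acta1 and Acta2, and so in their ratios to Actc1 there, was not tested.

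Between the cytoplasmic actins, Actg1 was at 2.17% of Actb in ESC and 2.34% in MES, then 1.73% in CP and 6.12% in CM. With both genes divided by their unshared part these values became 3.34%, 3.60%, 2.67% and 9.42%. In either form CM had the highest ratio.

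**Figure D4:**
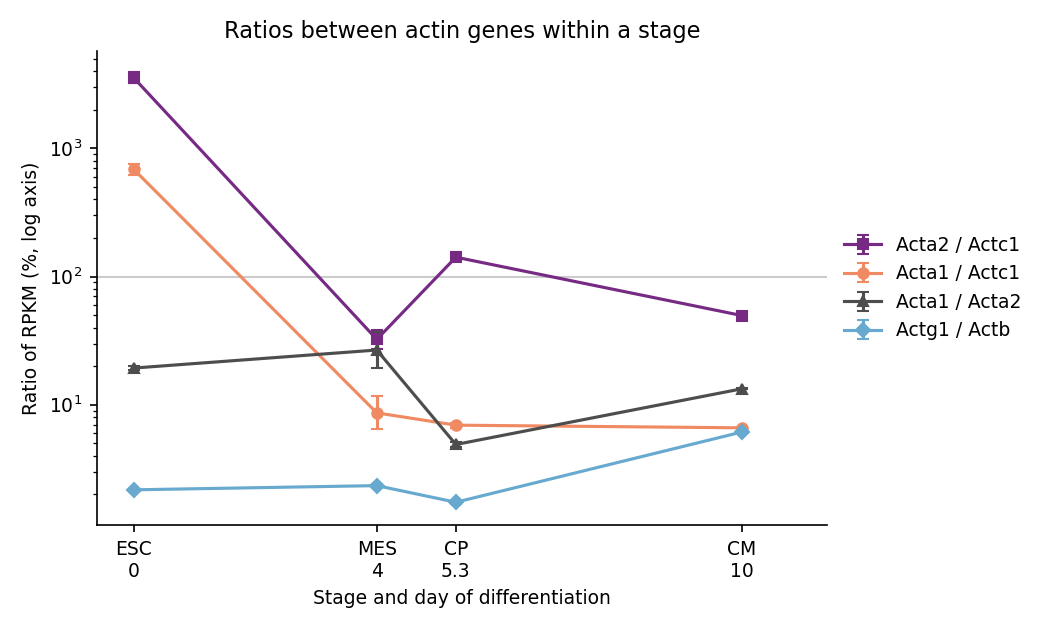
Ratios of RPKM within a stage (percent, log axis) against the day of differentiation, with bars for the 95% interval from counting alone and a grey line at 100%. Acta1 over Actc1 lies at 8.64%, 6.93% and 6.60% from MES to CM, while Acta2 over Actc1 goes from 32.3% to 141% to 49.6%.

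Set against all genes, stage differences were taken as log2(RPKM + 1), a scale that shrinks the differences of low genes, and those of at least 1, or 2-fold on that scale, were counted. From ESC to MES 0 of the 5 actins were at least 2-fold higher, against 11.1% of all genes, and 2 were lower, Acta1 with a log2 difference of -4.11 and Acta2 with -5.48, against 11.2% of all genes. From MES to CP 3 were higher, against 8.91% of all genes, and 0 lower, against 3.91%. From CP to CM 3 were higher, against 11.3%, and 1 lower, Actb, against 12.8%. Between CM and ESC 3 were higher, against 22.2%, and 1 lower, against 23.4%. A trough in MES, at least 2-fold below both ESC and CP, was present in 224 genes or 1.65% of the table, Acta1 and Acta2 among them, and 85 of these were also at least 2-fold higher in CM than in CP.

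The 3 muscle actins were higher by 5.64 (Actc1), 4.06 (Acta1) and 7.40 (Acta2) on the log2 scale in CP than in MES. In that comparison 99.9% of all genes had a smaller difference than Actc1, and 99.6% a smaller one than Acta1. They were higher by 3.47, 3.35 and 1.96 in CM than in CP, where the median of all genes was -0.15. Actb had log2 differences of -0.27 (0.15 under quantile normalization, which turns the sign), 0.22 and -1.33 (-2.11 under quantile normalization) along the 3 steps, and Actg1 -0.16, -0.21 and 0.47. Over all stages the range of Actc1 was 9.71 on the log2 scale, with 2 genes of the table larger, that of Acta2 9.36 with 5 larger, and that of Acta1 7.41 with 31 larger.

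As a reference gene Actb, with a range of 1.38 between its highest and lowest stage on the same scale, was not among the steadiest. Of 17 other commonly used reference genes 7 had a larger range than Actb, against 43.4% of all genes. A larger range than that of Actg1, 0.47, was present in 16 of the 17, against 90.8% of all genes. The median range of the 17 was 1.31, near the median of 1.24 of all genes. Eef1a1, a translation elongation factor, had a range of 0.47, Hsp90ab1, a chaperone, 0.96, and Tubb5, a tubulin, 1.32. Some of these genes share sequence with other genes as the cytoplasmic actins do: 74.2% of the words of Eef1a1 and 84.0% of those of Gapdh occur in other genes. Gapdh stood at only 12.7, 9.19, 9.13 and 8.61 RPKM, and Eef1a1 at 927, 879, 670 and 866. Whether reads in shared sequence were lost, for these genes or for Actg1 and Actb, was not tested.

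The gene whose pattern was closest to that of each actin was found among 7025 genes that reached 10 RPKM, by the root mean square difference between centred log2(RPKM + 1) profiles over the 4 stages. With 4 points per profile this is a loose measure, and no shared control follows from it. The 4 nearest to Actc1 were Myl3 at 0.19, Myh7 at 0.19, Myl4 at 0.78 and Mybpc3 at 0.79, a ventricular light chain, the beta heavy chain, an atrial light chain of myosin and myosin binding protein C. Myl3 stood at 0.112 RPKM in ESC, 0.544 in MES, 88.9 in CP and then 702 in CM. Myl3 and Myh7 were below 1 RPKM in ESC and MES, where this scale shrinks differences, so their closeness rests in part on the added 1. Of the Myh7 words 37.9% occur in other genes.

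The 4 nearest to Acta1 were Col1a1 at 0.35, a chain of collagen I, Cryab at 0.41, a small heat shock protein of muscle, Clu at 0.67, which encodes clusterin, and Tagln at 0.67, which encodes the smooth muscle protein transgelin. Col1a1 stood at 14.8, 0.615, 19.9 and 151 RPKM and shared the trough in MES. Those nearest to Acta2 lay further off, with Cryab at 1.00, Myl9, a smooth muscle myosin light chain, at 1.04, Col1a1 at 1.37 and Hspb2, another small heat shock protein, at 1.46. Among the actins, which were left out of this ranking, Acta1 and Acta2 were 1.20 apart, Actc1 and Acta2 2.44, and Actc1 and Acta1 2.60. Near Actb were Impact, Upf3b, Stk38 and Tbcb, at 0.06 to 0.10, and near Actg1 Zcchc9, Lamp1, Tox4 and Nfs1, at 0.01 to 0.03.

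**Figure D5:**
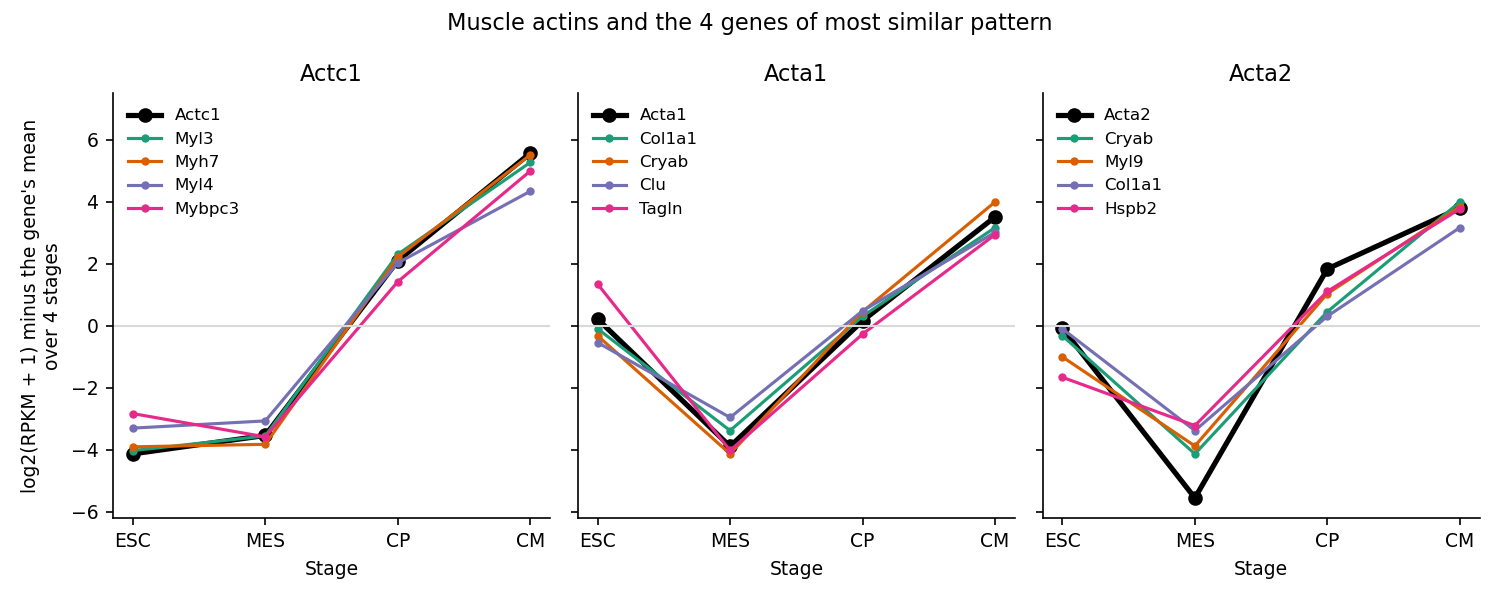
Each panel shows a muscle actin (black) with the 4 genes of most similar pattern, as log2(RPKM + 1) minus the gene's mean over the 4 stages. Acta1, Acta2 and the genes beside them are lowest in MES, whereas Actc1, Myl3 and Myh7 are 0.60, 0.47 and 0.08 higher there than in ESC. In the Actc1 panel Mybpc3 is lowest in MES, with a log2 difference of -0.75 from ESC to MES.

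Most other genes listed with the thin filament were higher at the same steps as Actc1. The list also holds genes outside the filament itself, such as Mybpc3 and Actn2. Both were at least 2-fold higher from MES to CP and from CP to CM. Of the 15 listed, 12 were at least 2-fold higher in CP than in MES and 12 in CM than in CP, with 0 lower in either. Of all genes 8.91% and 11.3% were higher and 3.91% and 12.8% lower at these steps. Their medians were 2.22 and 2.17, against -0.03 and -0.15 for all genes. Tnnt2, cardiac troponin T, went from 0.155 RPKM in ESC and 0.116 in MES to 437 in CP and 1293 in CM. Tnnc1, troponin C of heart and slow muscle, stood at 2.04, 1.46, 315 and 692 RPKM. Tnni1, the slow skeletal troponin I that embryonic hearts use, stood at 0.239, 5.50, 250.4 and 629 RPKM. Tpm1, alpha-tropomyosin, was already at 67.3 RPKM in ESC, lower in MES at 31.3, and at 193 and 356 in CP and CM. Of the 15 listed genes 1, Tpm1, had a trough in MES like that of Acta1 and Acta2, against 1.65% of all genes.

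The summed smooth muscle markers had their stages in the same order as Acta2, but Tagln, Smtn, Cald1 and Lmod1 did not. Their sum over 9 genes was lowest in MES at 42.4 RPKM, with 210 in ESC, 352 in CP and 1794 in CM. A trough in MES was present in 3 of the 9, against 1.65% of all genes. In CP 7 of the 9 were at least 2-fold above MES, against 8.91% of all genes, with a median of 2.76 against -0.03. Tagln stood at 134, 2.26, 43.2 and 408 RPKM, Myl9 at 32.9, 3.61, 139 and 975, and Cnn1, calponin, at 7.38, 2.32, 21.8 and 73.4. Tagln, which held most of the ESC sum, shares 53.5% of its words with other genes. Smtn, at 12.7, 13.1, 26.4 and 23.3 RPKM, and Cald1, at 17.7, 18.6, 20.7 and 30.2, were lowest in ESC. Lmod1 was lower in CM than in CP, at 3.39 against 6.41 RPKM. Des, the muscle intermediate filament desmin, was instead at 3.56, 2.35, 90.8 and 273. Myh11, the smooth muscle myosin heavy chain and a defining marker, was at 0.193, 0.113, 2.95 and 3.08 RPKM, and Actg2, the smooth muscle gamma-actin, at 0.603, 0.0207, 1.12 and 5.32 RPKM, 0.459%, 1.05%, 0.224% and 0.273% of Acta2. The part of smooth muscle cells in the Acta2 level was not tested.

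Of the skeletal muscle markers 7 of 19 were in the table and the others, Myod1 and Myog among them, were not analysed here. The 7 summed to 95.2 RPKM in ESC and 10.6 in MES, then 22.1 in CP and 36.7 in CM, so the sum was highest in ESC and Acta1 in CM. The ESC sum was mostly Mylpf, the fast skeletal regulatory light chain, at 59.0, and Actn3, the alpha-actinin of fast fibres, at 32.1 RPKM, which were at 0.881 and 1.96 in CM. Tnnt1 and Tnnt3, the slow and fast skeletal troponins T, were at 24.6 and 2.08 RPKM in CM. Pax3 was at 0 in CM and Myh2 at 0 in MES. Fibroblast markers, 7 in the table, summed to 20.4, 52.0, 80.9 and 251 RPKM, with Lum at 0 in ESC, MES and CP. Col1a1 held most of the CM sum, at 151 RPKM. From CP to CM 5 of the 7 were at least 2-fold higher and 1, Pdgfra, lower, against 11.3% and 12.8% of all genes. Thy1 was lower at each step, at 3.43, 2.43, 0.577 and 0.221 RPKM. Pdgfra, a growth factor receptor also found on early mesoderm, held most of the MES sum, at 0.206 RPKM in ESC and 48.3 in MES, whereas Col1a1 had a trough in MES, and Col3a1 was at 1.02 in ESC and 0.0173 in MES. Endothelial markers, 8 in the table, summed to 28.2, 72.0, 316 and 135, with Emcn at 0 in ESC and MES. Kdr, a VEGF receptor, held most of the MES sum, at 0.365 RPKM in ESC and 63.2 in MES. In contrast 3 of the 8, Pecam1, Tek and Cldn5, had a trough in MES, as did 3 of the 9 smooth muscle markers and 1.65% of all genes. Pecam1 stood at 16.2, 0.391, 24.9 and 22.4 RPKM. The 9 dissociation and stress genes summed to 272, 420, 472 and 1160 RPKM. From ESC to MES 4 of the 9 were at least 2-fold higher and 2 lower, against 11.1% and 11.2% of all genes. Fos was at 2.68 RPKM in ESC and 41.9 in MES, Jun at 6.25 and 60.6, Egr1 at 19.9 and 94.0, and Ier2 at 117 and 158. Hspb1, the small heat shock protein of that list and 1 of the 2 lower, was at 74.5 RPKM in ESC against 0.971 in MES. The part of these genes' cells, or of handling, in the actin levels was not tested.

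Among SRF and its partners, Srf itself was at 33.4, 45.3, 78.4 and 42.6 RPKM, a narrow range beside that of the muscle actins. Myocd, which encodes the coactivator myocardin, was at 0.0617 RPKM in ESC and 0.313 in MES, then 41.4 in CP and 33.3 in CM. Mef2c stood at 0.0301, 1.83, 74.6 and 34.3, and Nkx2-5 was given above. Gata4 differed, at 0.428, 50.7, 53.2 and 59.3 RPKM, with log2 differences of 5.18 from ESC to MES and 0.07 from MES to CP. Of the 11 genes of this list 5 were at least 2-fold higher in CP than in MES, with 0 lower and a median of 0.98, against 8.91% higher, 3.91% lower and a median of -0.03 for all genes. In CM 3 were higher and 1 lower, Mef2c, than in CP, against 11.3% and 12.8% of all genes. A trough in MES was present in 0 of the 11, near the 1.65% of all genes.

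Genes that fold actin were lower in CM than in ESC, as Actb was. The CCT chaperonin, a ring of 8 subunits that folds newly made actin and tubulin, was at least 2-fold lower in CM than in ESC for 7 of 8 subunits, against 23.4% of all genes, with a median of -1.42 against -0.03 for all genes. Its sum was 2385, 2068, 1433 and 821 RPKM. Cct5 stood at 412, 408, 283 and 158 RPKM, and Cct6a at 371, 285, 164 and 67.6. Unlike Actb, the sum was already lower in CP than in MES.

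Of 12 genes for actin monomers and filament turnover, 3 were at least 2-fold higher and 4 lower in CM than in ESC, against 22.2% and 23.4% of all genes, with a median of -0.64. Pfn1, profilin, which hands monomers to growing filaments, stood at 634, 568, 646 and 337 RPKM, and Cfl1, the non-muscle cofilin that severs filaments, at 422, 394, 343 and 124. Tmsb4x, thymosin beta 4, which holds monomers in store, had a trough in MES with 163, 40.6, 111 and 190.2 RPKM. Dstn, destrin, was at 181, 90.5, 159 and 196.

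Of the 9 Arp2/3 complex genes, which start branched filaments, 0 were at least 2-fold apart between ESC and MES or MES and CP. Of all genes 11.1% were higher and 11.2% lower from ESC to MES, and 8.91% and 3.91% from MES to CP. In CM 1 of the 9 was lower than in ESC, Actr2, against 23.4% of all genes. Arpc2, a core subunit, stood at 58.9, 60.3, 70.2 and 83.6 RPKM. Of 12 capping proteins and non-muscle crosslinkers 0 were higher and 4 lower in CM than in CP, against 11.3% and 12.8% of all genes, among them Flna, filamin A, at 136, 197, 275 and 78.1 RPKM, Fscn1, fascin, at 186, 454, 333 and 79.2, and Tpm4, a non-muscle tropomyosin, at 39.5, 106, 176 and 41.7. Of 11 other actins and actin-related proteins 2 were at least 2-fold higher and 1 lower in CM than in CP, against 11.3% and 12.8% of all genes. The lower one was Actl6a, a chromatin remodelling subunit, at 69.8, 58.8, 36.4 and 10.6 RPKM.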

How the data were processed

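Per the labels' protocols, libraries of poly(A) RNA at 4 stages of mouse embryonic stem cell differentiation were read on an Illumina GAIIx. The deposited values are RPKM per the file headers, computed by the authors, for 13540 genes and with a single column for each stage. The submitters' processing notes name Novoalign 2.07.00 and mm9. The read counting, annotation, strand and pooling of duplicates were not given in the sources used here. Every gene of the table exceeds 1 RPKM at a stage.

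Depth and the smallest whole reads were recovered from the steps between values (relative tolerance 1e-07), after a check on simulated data, so true reads of Acta2 and Actb may be a multiple. Differences used log2(RPKM + 1) and a minimum of 2-fold, with python 3.11.15, numpy 2.4.6 and pandas 2.3.3. Tests planned for separate libraries could not be run. The members and the 14 lists (165 genes, 140 in the table) were chosen with earlier results of these data known. Genes named from a list came from its up to 4 genes of highest mean RPKM, but for several lists only part of these is given. The 4 genes of most similar pattern to each actin are all named. Others (Actg2, Myh11, Smtn, Cald1, Lmod1, Myocd, Pax3, Myh2, Lum, Thy1, Emcn, Pecam1, Tek, Cldn5, Actr2, Hspb1, Gapdh, Lrrc58, Pou5f1 and T) were singled out after their values were seen. Of 150 list and named genes matched to GENCODE M21, 14 share over 50% of their 32-base words with other genes.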

Additional observations from a re-analysis of the deposited data

How the results depend on the processing

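Alternatives were pseudocounts of 0.5 and 0.1, each stage scaled to a sum of 1000000, quantile normalization, a minimum of 4-fold, only genes that reach 3 RPKM, and other make-ups of the actin share. No paired analysis was possible because the table has 1 column per stage, and leaving out a library could not be run for the same reason. No actin difference of at least 2-fold changed sign. The muscle share in ESC, MES, CP and CM was 5.28%, 0.353%, 23.95% and 83.9% after division by the unshared part. It was 6.11%, 0.350%, 25.7% and 84.4% weighted by the length of all M21 exons of each gene joined, which is not always the recovered gene model. It was 7.57%, 0.156%, 22.1% and 74.3% without Actc1. Without Actg1 it was 7.89% in ESC, 32.6% in CP and 89.5% in CM. The log2 ratio of Actc1 to Actb, -8.99, -8.00, -2.36 and 2.45, became -9.58, -8.59, -2.95 and 1.86 after division by the unshared part, and -2.38 in CP and 2.36 in CM with Actg1 added to Actb (chosen after seeing the data). At 4-fold, 0 actins instead of 1 were lower in CM than in CP and than in ESC. Of all list genes, 8 instead of 19 were then lower from ESC to MES, 0 instead of 2 from MES to CP, 5 instead of 21 from CP to CM, 26 instead of 47 were higher from CP to CM, and 6 instead of 25 lower between CM and ESC. Actb from ESC to MES was at -0.27 on the log2 scale and at 0.15 under quantile normalization, where Actb and Actc1 from CP to CM were at -2.11 and 2.78 instead of -1.33 and 3.47. With a pseudocount of 0.1 Acta1 was at -5.35 instead of -4.11 from ESC to MES and at 5.29 instead of 4.06 from MES to CP. Scaling to a sum of 1000000 shifted the median of all genes by -0.14 from CP to CM. Under quantile normalization 0 of the 4 genes nearest to Actb, and 0 of the 4 nearest to Actg1, were the same, against 3 or 4 for the muscle actins. The causes were not tested. The MES values of Acta1 and Acta2 rest on 47 and 162 reads at least, and replicate error is unknown.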
